A study of Mus musculus with 2 samples.

Results

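The 349 restriction fragments described here gave less amplified product from the paraventricular nucleus of the hypothalamus (PVH) than from the arcuate nucleus (ARH) on both arrays of the study. They were chosen by their measured ratios among 21908 autosomal fragments, of which they make up 1.59%. A fragment was a deposited interval of 200 to 2000 bp that held at least 2 usable probes. Its ratio was the mean log2(PVH/ARH) of those probes, centred on the median probe of the array, and it had to be -0.585 or less, a 1.5-fold lower PVH signal, on each array. These fragments are called PVH-low fragments below, and members in the figures.

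Per the labels, DNA came from micro-dissected PVH and ARH of C57BL/6 mice, mixed in sex, at postnatal day 10. Every pool combined 7 dissected pieces of 1 nucleus, and 500 ng of pooled DNA entered the assay. The 2 arrays were labelled as biological replicates with swapped dyes. For each labelling, 2 µg of product was used, with PVH in Cy5 on replicate 1 and in Cy3 on replicate 2. The second nucleus is ARH in the source names, sample titles and design text, whereas the series title and a tissue tag name the ventromedial nucleus (VMH). ARH is used here. The arrays read DNA, so the dissection could not be checked against the expression of marker genes. Each pool mixed all cells of a dissected piece, so a change of methylation within a cell type and a different mix of cell types cannot be told apart.

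The PVH contains neurons that regulate feeding, stress hormone release and autonomic output, and the ARH contains neurons that sense circulating metabolic hormones and project to the PVH. DNA methylation at CpG sites is copied at cell division and differs between cell types. In the assay, SmaI first cuts unmethylated CCCGGG sites to blunt ends, and XmaI then cuts the sites that methylation protected, leaving cohesive ends. Adaptors join cohesive ends only, so PCR enriches fragments that were methylated at both ends. A low PVH signal therefore reports on the pair of end sites together, and which end differed cannot be told apart from a single fragment. Where fragments touch, they share a restriction site.

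On replicate 1 the ratios of the PVH-low fragments ran between -4.02 and -0.59, with a median of -0.93 and quartiles of -1.19 and -0.72. On replicate 2 they ran between -3.19 and -0.59, with a median of -0.85 and quartiles of -1.12 and -0.72. Averaged over both arrays, the median PVH-low fragment was 1.86-fold lower in PVH than in ARH, and its quartiles were 1.70-fold and 2.16-fold lower. These values chose the fragments, so they are given as a description without a test. At least 2-fold lower means occurred in 128 fragments (36.7%), 78 fragments were at least 2-fold lower on each array, and 7 had a mean at least 4-fold lower. On the array with the higher ratio, 102 fragments (29.2%) lay within 0.1 of the threshold.

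The 3 members closest to the threshold were chr5:119824278-119824486, with -1.10 on replicate 1 and -0.59 on replicate 2, chr8:110497339-110498826, with -0.98 and -0.59, and chr5:64623067-64624636, with -0.59 and -0.84. In the chromosome 8 fragment 2 of 4 probes failed the test for being above background in PVH on 1 or both arrays, so its place beside the threshold is uncertain. The 3 nearest fragments left outside were chr4:147805973-147807159, with -0.58 on replicate 1 and -0.60 on replicate 2, chr14:116787535-116788503, with -0.58 and -0.77, and chr4:42690747-42691437, with -0.58 and -1.01. The gap between the fragments inside and outside was smaller than the median SD between arrays of the PVH-low fragments, 0.13 on the log2 scale (n = 2 arrays). All positions are on mouse build mm8, as the deposited files give them, and no gene names were paired with them.

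**Figure D1:**
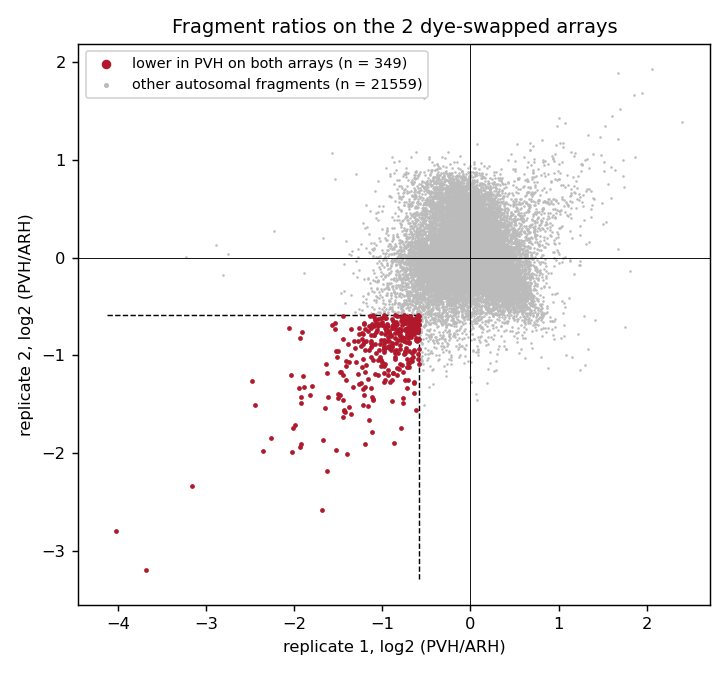
Mean log2(PVH/ARH) of each autosomal fragment on replicate 1 (horizontal axis) and replicate 2 (vertical axis). Coloured points are the 349 members and grey points the other fragments, and the dashed lines mark 1.5-fold. The members fill the lower left corner by their definition.

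The second array allows a reading that the choice on the first did not use. Of all fragments, 6.93% were at least 1.5-fold lower in PVH on replicate 1 and 4.01% on replicate 2. Among the 1518 fragments past the threshold on replicate 1, 349 (23.0%) were also past it on replicate 2, and 90 (5.93%) were at least 1.5-fold higher in PVH there, against 6.25% of all fragments. Their median ratio on replicate 2 was -0.17, against -0.01 for all fragments, and 65.1% were below 0, against 51.2%. Among the 878 fragments past the threshold on replicate 2, the same 349 made up 39.7%, 81 (9.23%) were at least 1.5-fold higher on replicate 1, against 4.23% of all, and the median on replicate 1 was -0.44. So 1169 of the fragments past the threshold on replicate 1 and 529 of those past it on replicate 2 did not pass on the other array. In the opposite direction, 157 fragments (0.717%) were at least 1.5-fold higher in PVH on both arrays, and 171 fragments were past the threshold with opposite signs. Over all 21908 fragments the ratios of the 2 arrays had r = 0.12. With loess normalization r was 0.31 and 84 fragments were past the threshold with opposite signs. With normexp background correction and loess, r was 0.34 and 29 fragments were. Settings without loess gave r of 0.073 to 0.13 and 137 to 193 such fragments. The 2 arrays differ in pools, dye orientation and hybridization at once, and these cannot be told apart.

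The agreement between arrays varied among the PVH-low fragments. The arrays differed by less than 0.2 for 184 of them (52.7%), against 32.4% of all fragments. A rule that asks both ratios to pass the same threshold favours such agreement. Among the fragments higher in PVH on both arrays, chosen in the same way, the share was 51.0%. Replicate 1 gave the lower ratio in 193 of the 349. Among 147 of them every probe, at least 3, passed the threshold and was well above background, and the 8 of these with the closest agreement are named here. chr4:107178468-107178856 had PVH signals of 1600 on replicate 1 and 2322 on replicate 2, against ARH signals of 4145 and 5709. It was 2.51-fold lower in PVH (log2 ratio -1.33 ± 0.00, SD, n = 2 arrays). chr9:57994519-57994840 had PVH signals of 1894 and 2143, against ARH signals of 7578 and 8212, and was 3.82-fold lower (-1.94 ± 0.01, SD, n = 2 arrays). In both fragments the ARH channel was more than 2-fold brighter on each array, in either dye. The other 6 were between 1.65-fold and 2.07-fold lower in PVH: chr3:68613289-68614795, chr4:125753923-125754846, chr4:150918474-150919770, chr15:86315896-86317086, chr14:104475466-104475784 and chr7:72646922-72647758.

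The PVH-low fragments were longer than the fragments tested. Their lengths ran from 201 to 1964 bp with a median of 979 bp (quartiles 590 and 1305 bp), against a median of 777 bp (419 and 1301 bp) for all fragments. Between 800 and 1600 bp long were 197 of them (56.4%), against 35.8% of all. Divided into 8 length classes of equal size, the share of fragments that were PVH-low climbed from 0.761% in the class of 200 to 299 bp to 2.91% (80 of 2747) in the class of 1019 to 1301 bp, and was 1.06% in the class of 1615 to 2000 bp. The whole arrays moved with length as well. In the class of 1302 to 1614 bp the median of all fragments was -0.26 on replicate 1 and -0.04 on replicate 2, and in the shortest class it was 0.10 and 0.08. With a straight line on log2 length, fitted to the ratios of each array, taken out, 337 fragments passed the rule. Of these, 298 were the same, and the median length of the 337 was 812 bp. A straight line cannot follow the replicate 1 median, which rose again to -0.09 in the longest class. How much of the length pattern remained after this step was not computed. Long PVH-low fragments included chr1:94054883-94056846, 1964 bp, with -0.62 and -0.70, and chr5:115404391-115406351, 1961 bp, with -1.22 and -0.78 and 2 of 4 probes dim in PVH on 1 or both arrays, and the shortest was chr15:71879524-71879724, 201 bp, with -0.98 and -0.61.

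**Figure D2:**
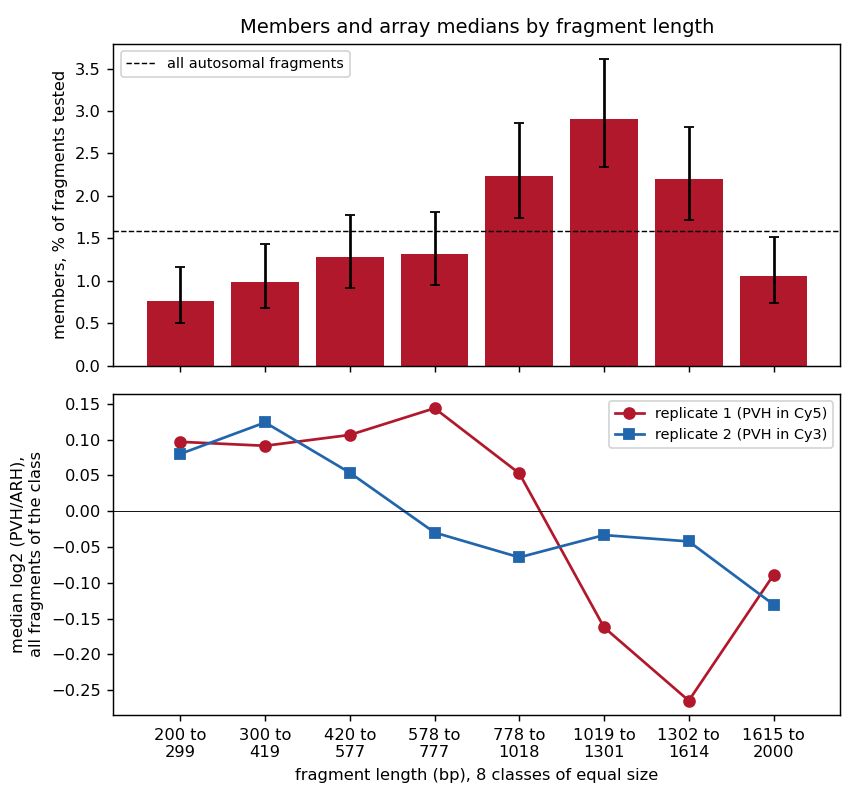
Upper panel, PVH-low fragments as a percent of the fragments tested in 8 length classes of equal size, with the share of all autosomal fragments dashed. Lower panel, the median log2(PVH/ARH) of all fragments in the class on replicate 1 and replicate 2. The share is highest at 1019 to 1301 bp, 2.91%, and the replicate 1 median is lowest at 1302 to 1614 bp, -0.26.

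The density of SmaI/XmaI sites around the PVH-low fragments had the same median as elsewhere. Within 5000 bp on either side of the fragment centre the median number of listed fragment ends was 3, with quartiles of 2 and 4. All fragments had the same 3 values. The fragment's own 2 ends are counted, so 2 is the lowest possible value and means no other site. Of the PVH-low fragments, 146 (41.8%) touched another listed fragment, against 41.3% of all fragments, and 27 (7.74%) were touched on both sides, against 6.67%. The nearest other listed fragment was at a median of 3031 bp, against 2852.5 bp. Only sites that bound a listed fragment enter these counts.

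The median PVH signal of the PVH-low fragments was 1039 on replicate 1 and 1135 on replicate 2, against 925 and 1233 in all fragments. Their median ARH signal was 2162 and 2330, against 972 and 1111 of all fragments. The 157 fragments higher in PVH had ARH medians of 1867 and 2358, so a bright ARH channel was not particular to the PVH-low fragments. Ratio and signal share their numbers, and these medians are given as a description. Over 8 classes of ARH signal the PVH-low share was lowest, 0.621%, at signals of 195 to 365 and highest, 2.67%, at 4801 to 12770. The brightest class, whose median over all fragments was 0.34 on replicate 1 and -0.29 on replicate 2, held 1.57% PVH-low fragments. The brightest pair of PVH-low fragments differed widely between arrays. chr13:55014829-55015418 had PVH signals of 30772 on replicate 1 and 14566 on replicate 2, against ARH signals of 54664 and 53646, and ratios of -0.87 and -1.89. In chr5:112609730-112610499 the ratios were -0.78 and -1.74. Loess normalization of each array, which removes such a trend with signal, left 403 fragments, 322 of them the same.

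Every probe was well above background in both channels on both arrays in 319 of the PVH-low fragments (91.4%), against 92.7% of all. Of their 1318 probes, 47 failed the test for being well above background in the PVH channel of 1 or both arrays, a share of 3.57% against 2.19% of the probes in all fragments. On both arrays 19 failed (1.44%, against 0.260%), and these entered through ARH alone, the channel that the rule makes the brighter. In chr14:11181933-11183630 neither of 2 probes was well above background in PVH, with PVH signals of 19.2 and 25.1 against ARH signals of 34.1 and 48.5, and only a bound of at least 1.29-fold lower in PVH can be given. For that bound, the ARH signal of each probe was set against its PVH signal, or against a floor where the floor was higher. The floor was the lowest PVH signal on the array among probes well above background. The log2 ratios were centred as before and averaged over probes and arrays.

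Most probes of the PVH-low fragments passed the threshold one by one. Of the 1318 probes, 1028 (78.0%) were themselves past the threshold on both arrays, against 1.80% of the 78730 probes in all fragments. The rule chose fragments by the mean of these probes, so a high share follows from it, and the 1.80% includes the same 1028 probes. In 164 fragments (47.0%) every probe passed and in 105 (30.1%) all but 1 did, whereas in 4 none did and only the mean was low enough. Every probe was below 0 on both arrays in 343 of the 349. The SD among the probes of a fragment had a median of 0.19 on replicate 1 and 0.14 on replicate 2, against 0.19 and 0.15 in all fragments. Probes in the outer 10% of a fragment had median ratios of -0.97 and -0.80, and those in its centre -0.92 and -0.91. Over all fragments these medians were -0.057 and -0.014 in the outer 10%, and 0.013 and 0.004 in the centre. Lower outer probes on replicate 1 were thus not particular to the PVH-low fragments. The rule set the mean of the probes in each PVH-low fragment, so their low medians at each position follow from it and are given as a description. How far a probe lay from its fragment's mean had a Pearson correlation between arrays of 0.30 over the 1318 probes, with a Spearman correlation of -0.05. Without the 10 fragments of widest probe spread it was 0.055, so the value rests on those fragments. Probes of a fragment share the same product, and this figure was -0.39 over all fragments.

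PVH-low fragments were found on all 19 autosomes. Their share ran from 0.838% of the fragments tested on chromosome 19 to 3.10% on chromosome 14, with 22 of 709. After chromosome 14 came chromosome 8 at 2.09% and chromosome 6 at 2.00%. Joined wherever gaps were at most 100000 bp, 94 of the 349 (26.9%) lay in 41 runs of 2 or more, and 255 stood alone. The share depended on the gap allowed, at 16.6% with 10000 bp and 53.3% with 1000000 bp. Of the runs, 32 held 2 fragments, 7 held 3, 1 held 4 and 1 held 5. In 25 of the 41 runs every tested fragment in the span was PVH-low, and 20 spanned less than 10000 bp. A run begins and ends with a PVH-low fragment, so a run with only 2 tested fragments meets the first count by definition. Most of the 25 were such runs, so that count does not show unbroken stretches. Of the 157 fragments higher in PVH, 13.4% lay in runs with gaps of at most 100000 bp. That set is smaller, which by itself lowers such a share. Tested fragments are themselves clustered, with 41.3% touching another listed fragment. The share in runs that this layout alone gives was not computed.

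The run with the most members, 5 of 12 tested fragments, was chr14:20771279-20783066. At its left end 3 touching fragments had ratios of -1.50 and -1.44, -1.48 and -1.41, and -1.94 and -1.34 on replicates 1 and 2. At its right end chr14:20782109-20782769 had PVH signals of 18016 and 9791 against ARH signals of 39070 and 33657, ratios of -1.12 and -1.79, and the touching chr14:20782770-20783066 had -1.44 and -1.63. The 7 tested fragments between them had ratios of -0.32 to 0.09 on replicate 1 and, with a wider spread, -0.83 to 0.69 on replicate 2, and none passed the threshold on both. The 2 low blocks were thus 8776 bp apart, with no PVH-low fragment between them. From the left block to position 20776164 no fragment was tested. The fragment that touches the right block from inside, chr14:20780577-20782108, had -0.32 and -0.83, past the threshold on replicate 2 only.

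In chr9:32292320-32296138 all 3 tested fragments, which touch, were PVH-low and the arrays agreed closely. The first fragment had PVH signals of 876 and 753 against ARH signals of 1781 and 1508 on replicates 1 and 2, the second 730 and 806 against 2652 and 2934, and the third 73.3 and 78.6 against 210 and 224. They were 1.93-fold, 3.78-fold and 2.74-fold lower in PVH (log2 ratios -0.95 ± 0.04, -1.92 ± 0.01 and -1.45 ± 0.01, SD, n = 2 arrays). The ARH signal of single probes varied widely along the run, while PVH was below ARH at all 12 probes on both arrays. In the third fragment 1 probe failed the background test in PVH on replicate 2.

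**Figure D3:**
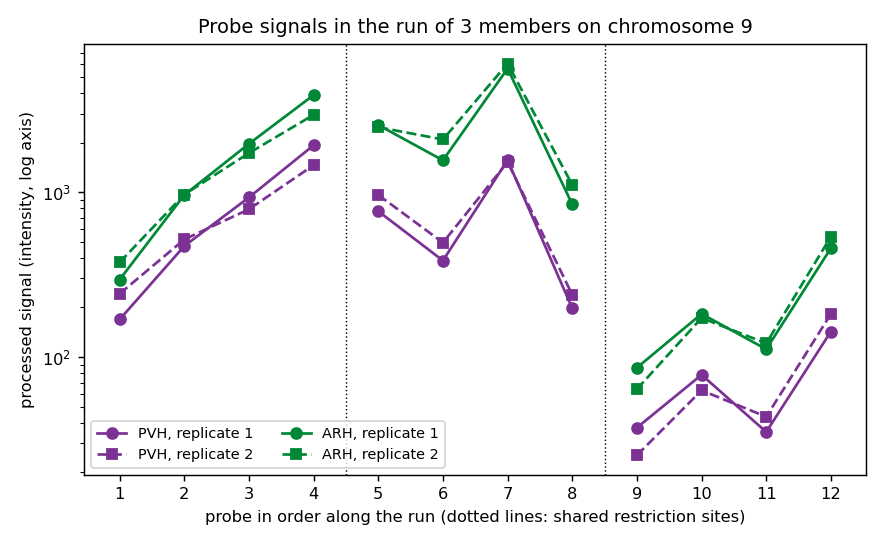
Processed signal of the 12 probes of the 3 touching members on chromosome 9 in order along the run (log axis), in PVH and ARH on replicates 1 and 2. Dotted lines mark the shared restriction sites, and the PVH signal is below the ARH signal at every probe on both arrays.

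In the run of 4, chr5:119824278-119919746, the fragment chr5:119918478-119919746 had PVH signals of 22.3 and 60.9 against ARH signals of 338 and 428. On replicate 1, where its ratio was -4.02, 2 of its 3 probes failed the background test in the PVH channel, so the size of that ratio is not well measured. On replicate 2 all 3 probes passed that test and the ratio was -2.79, and with normexp background correction the mean of both arrays was -1.81. The fragments touching it on the left, chr5:119917080-119918477 and, beyond that, chr5:119916694-119917079, were 3.61-fold and 1.61-fold lower. The lowest mean, -3.44, was that of chr12:73856169-73856855, with -3.69 and -3.19 and all 4 probes past the threshold and above background, and it was singled out after its values were seen. Of 7 runs with 3 members, those with the lowest mean ratios are named, and besides the run on chromosome 9 they were chr8:73419127-73424606, whose members were 2.03-fold to 3.05-fold lower, chr17:85588786-85601164, where they were 1.95-fold to 3.41-fold lower, and chr8:37485326-37615026, with 1.59-fold to 2.40-fold. These 3 runs spanned 5480, 12379 and 129701 bp. Each also held tested fragments that were not PVH-low, 3, 3 and 2 of them. On replicate 1 those fragments had ratios of -0.39 to 0.18 in the first run, -0.07 to 0.22 in the run on chromosome 17 and -0.54 to -0.12 in the last, and on replicate 2 they had -0.12 to 0.03, 0.10 to 0.45 and -0.50 to -0.19.

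**Figure D4:**
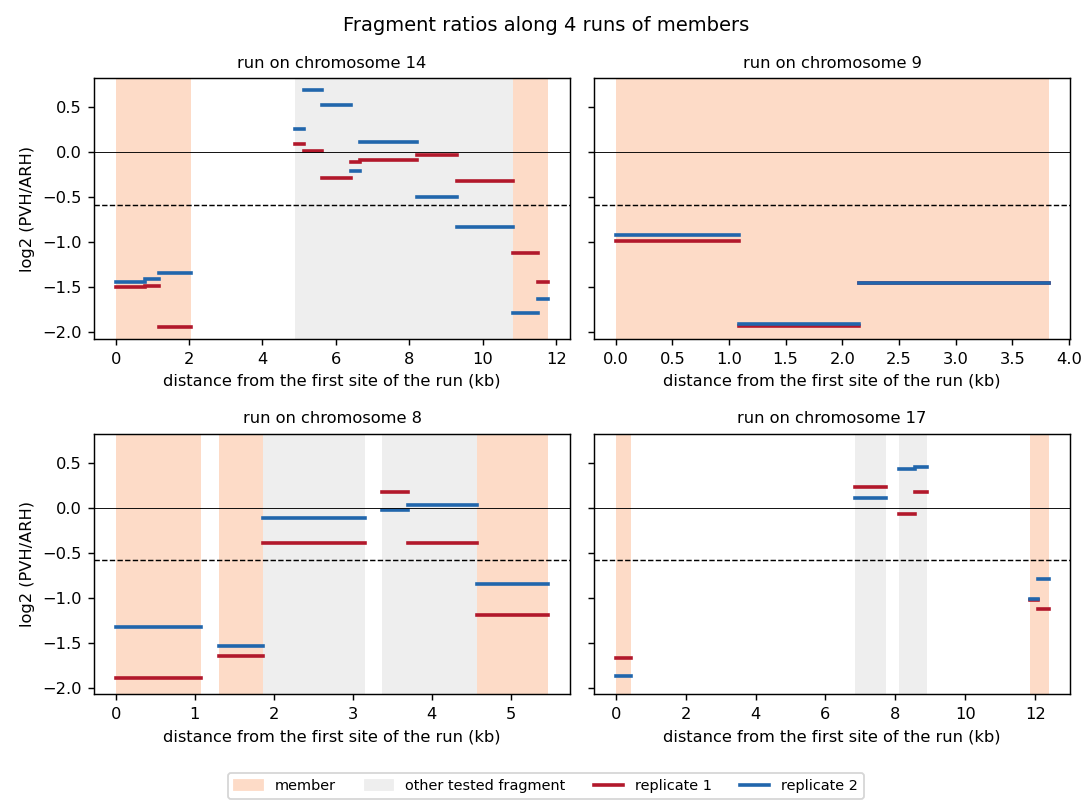
Mean log2(PVH/ARH) of each tested fragment on replicate 1 and replicate 2 along 4 runs of members, against the distance from the first site of the run in kb. Shaded fragments are members or other tested fragments, and the dashed line marks the threshold of -0.585. In the run on chromosome 14 the 7 fragments between the 2 low blocks are not members.

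Fragments that touch a PVH-low fragment share 1 of its sites, and most of them were below 0 as well. Counted from each PVH-low fragment, 166 touching fragments were tested. Of these, 50 (30.1%) were PVH-low themselves, in 25 pairs, against 1.59% of all fragments. At 1 to 1000 bp, where no site is shared, 6 of 51 (11.8%) were PVH-low, which is also above that share. These few are again counted from both sides of each pair. The 116 touching fragments that were not PVH-low had median ratios of -0.28 on replicate 1 and -0.31 on replicate 2, against -0.01 and -0.01 for all fragments, and 71 of them (61.2%) were below 0 on both arrays, against 25.7%. Touching fragments elsewhere, 8777 that were not PVH-low and touched none, had medians of 0.01 and 0.03. Past the threshold on 1 array were 46 of the 116 (39.7%), against 7.88% of all fragments that were not PVH-low.

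Without a shared site the medians were nearer 0. At 1 to 1000 bp the 41 fragments that were not PVH-low had medians of -0.14 and 0.02, and 26.8% were below 0 on both arrays. Farther out, up to 5000 bp, the 135 had -0.05 and 0.03 (22.2%), up to 20000 bp the next 267 had -0.04 and -0.03 (31.5%), and up to 100000 bp the next 1109 had -0.01 and -0.03 (29.7%). Only the touching class had both medians below -0.2. Fragments touching one that was higher in PVH on both arrays leaned the other way: the 43 had medians of 0.23 and 0.29, and 29 (67.4%) were above 0 on both arrays. Across 4873 touching pairs with no PVH-low fragment the mean ratios of the pair had r = 0.39, against 0.18 for 1028 such pairs that were 1 to 1000 bp apart. Pairs come from the same 2 arrays and are not independent.

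Among the 27 PVH-low fragments with tested fragments touching on both sides, 13 had both of them below 0 on both arrays, 10 had 1 and 4 had none. PVH-low fragments are among these neighbours, beside 13 of the 27, and they were below 0 by the rule. Averaged over both arrays, the lower neighbour of each of the 27 had a median ratio of -0.65 and the higher one -0.13. For 1285 other fragments with tested fragments touching on both sides, these medians were -0.07 and 0.15. The medians of the 27 include the PVH-low neighbours, and no matching counts below 0 are given for the 1285. Neighbours differed in sequence, length and probes, and whether a shared site or another shared property of the region moved with them was not tested.

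**Figure D5:**
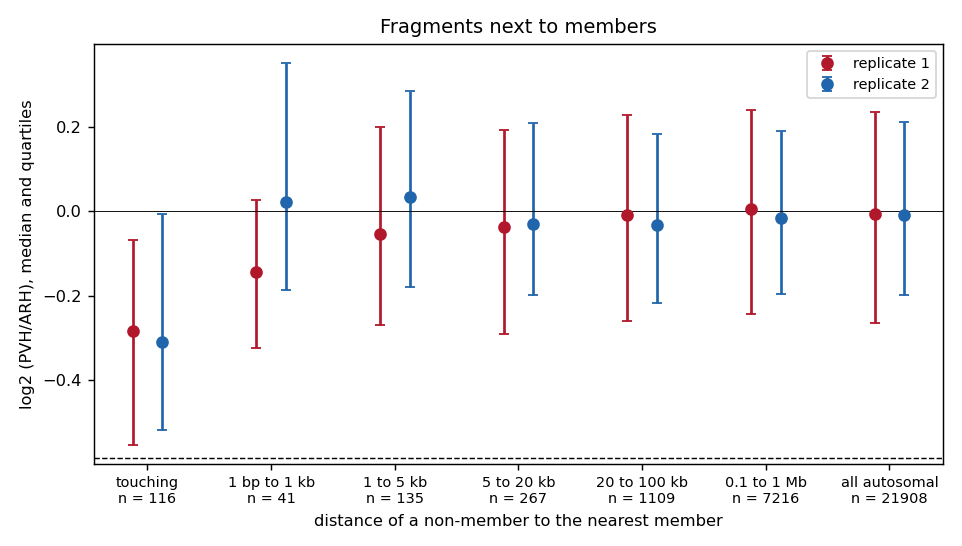
Median and quartiles of log2(PVH/ARH) on replicate 1 and replicate 2 for fragments that are not members, by distance to the nearest member, with all autosomal fragments at the right. The 116 touching fragments have medians of -0.28 and -0.31, and the other distance classes lie between -0.14 and 0.03.

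Of 1018 autosomal intervals with 1 usable probe, which the rule left out, 11 (1.08%) were at least 1.5-fold lower in PVH on both arrays, near the 1.59% of the fragments tested. Autosomal probes outside any listed interval passed in 19 of 3287 cases (0.578%), against 1.80% of the probes in tested fragments. In the authors' deposited table of fragment log2 values, 312 of the 349 were past the threshold in both columns, and their medians in that table were -0.87 and -0.84, against 0.04 and 0.01 for all fragments.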

How the data were processed

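Arrays of 2 colours of PVH against ARH DNA products were read from both scanner files. Per the file headers, the authors' processed intensity came from Agilent Feature Extraction 10.5.1.1, background-subtracted and dye-normalized linearly (9.1.3.1 in the submitters' processing notes). The deposited log10 ratio of red over green equalled that of the processed intensities within 0.001 for 98.65% and 98.79% of spots. The deposited table of log2 values covers 23738 intervals; how probes were combined and centred is not given in the sources used here, and its columns followed the scanner ratios with r = 0.964 and 0.979.

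From 90535 non-control spots, 79 outlier spots were dropped, none was saturated, and 87109 lay inside an interval. A usable probe was well above background in PVH or ARH on each array (92.5% to 95.0% of spots were, by channel). Log2(PVH/ARH) was centred on the median of such probes (0.00067 and 0.00015) and averaged per interval, in Python 3.11.15 with pandas 2.3.3 and numpy 2.4.6; normexp (offset 50) and loess alternatives used limma 3.58.1 in R 4.3.3. The steps were tested on simulated data. Precision rests on 2 arrays, so no p-values were computed. The members, the lists and the naming rules were chosen with earlier results of these data known. Named fragments were those of the 6 runs with most members (ties to the lower mean ratio), the 8 of closest agreement between arrays, the 3 nearest the threshold on each side, and the extremes of length and signal. The planned gene lists, promoter matches and base composition were not run, because the gene tables used here are of another build and the files hold no probe sequences.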

Additional observations from a re-analysis of the deposited data

How the results depend on the processing

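The 349 PVH-low fragments became 343 with probes well above background in both channels, 353 with no background filter, 347 without centring, 337 centred on autosomal fragments, 331 with 3 probes, 360 with 1, 359 with probe medians, 349 with outlier spots kept and 318 in the authors' deposited table (312 shared). Normexp left 282 (259 shared), and with loess 302 (258 shared). A 2-fold threshold left 78, and each array alone gave 878 to 1518. At 2-fold the median length was 877 bp, 51.3% touched a listed fragment, every probe passed in 56.4%, 30.4% repeated on the second array, and 71.4% of touching fragments were below 0 on both arrays. The share in runs was 16.6% with gaps of 10000 bp, 53.3% with 1000000 bp, 22.3% without the 6 runs with most members, and 32.6 to 36.3% on each array alone. Median length was 812 bp with the straight-line length trend removed and 914 bp with normexp. It was 881.5 bp with normexp and loess, and 884 to 1144.5 bp on each array alone. Every probe passed in 41.5% with normexp and in 35.6 to 48.7% on each array alone. Repeats on the second array were 34.1% with loess, 34.1% with normexp and 41.9% with both. Median ARH signal was 3696 with normexp, 4179 with normexp and loess, and 860 to 4387 on each array alone. Within 20000 bp, 4 sites lay at the median. Touching fragments below 0 on both arrays were 51.4% with the straight-line length trend removed and 34.8 to 48.1% on each array alone. At 1.5-fold on both arrays they ran from 51.4% to 64.4% over these settings, against 22.6% to 28.9% of all fragments. The probe correlation of 0.30 turned to -0.055 with normexp, -0.12 with normexp and loess, and -0.099 to -0.073 on each array alone. For these changes the cause was not tested. Of 614 values of 40 named fragments, 502 moved by no more than the spread between arrays, 112 moved by more and none changed sign. These counts are partly fixed in advance. Values on each array alone lie within that spread by arithmetic and below 0 by the choice of fragments. Values with the largest runs left out were unchanged. Every ratio already pairs PVH with ARH of 1 replicate on 1 array, so no separate replicate block was added.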

Other observations

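On the sex chromosomes, which the choice of fragments left out, no interval with 2 or more probes was at least 1.5-fold lower in PVH on both arrays: 0 of 434 on X and 0 of 8 on Y, against 1.59% of autosomal fragments. At that share, 8 intervals are too few to read the count on Y. The X intervals had median log2 ratios of -0.34 on replicate 1 and 0.32 on replicate 2, and the Y intervals 1.18 and -1.85, so the sign of both turned between the arrays. An X median of 0.32 on replicate 2 by itself makes few X intervals low on both arrays. The count on X therefore does not compare with the autosomal share. The dyes were swapped between the arrays too, and dye, pool and hybridization cannot be told apart. The pools were mixed in sex per the labels, and the share of each sex per pool was not analysed here.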
